A study of Mus musculus with 19 samples.

Results

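Loss of the NF-kB subunit c-Rel was compared with its presence in mouse regulatory T cells (Tregs) after 16 hours of stimulation, in 2 c-Rel-/- and 2 wild-type (WT) RNA sequencing libraries of the 19 libraries in the series. The comparison covers every gene with library values, 14290 of the 14310 rows of the deposited table, and no measured value was used to choose the libraries. The c-Rel-/- cells came from C57Bl/6 Foxp3-CRE-YFP mice that also carry floxed alleles of c-Rel (c-Rel F/F). The WT cells came from C57Bl/6 Foxp3-CRE-YFP mice and received water, the diluent of pentoxifylline, whereas the labels name no diluent for the c-Rel-/- cells. All cells were YFP-positive and were cultured on plates coated with 5 ug/mL anti-CD3, in medium with soluble anti-CD28 (1 ug/mL) and murine IL-2 (10 ng/mL). Foxp3 drives the Cre recombinase, so deletion follows the start of Foxp3 expression and may be incomplete in a cell population. No label says that replicates are separate animals, so p-values measure only the spread between these libraries, which may be technical.

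NF-kB proteins bind DNA as pairs drawn from c-Rel, p65, RelB, p50 and p52. Inhibitor proteins hold them in the cytoplasm until a signal, in T cells that from the antigen receptor and CD28, frees them to enter the nucleus and bind kB sites. c-Rel is the lymphocyte member of the family and is known in Tregs for its part in the thymic induction of Foxp3, the factor that defines the lineage, and in the program of activated Tregs.

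The library labelled c-Rel-/- replicate 2 kept much of its Rel transcript. Rel (chromosome 11, 23736847 to 23770970, minus strand, GRCm38), the gene that encodes c-Rel, was at 2.44 and 25.0 RPKM (reads scaled by gene length and library size) in c-Rel-/- replicates 1 and 2, against 55.1 and 55.8 RPKM in WT replicates 1 and 2. The c-Rel-/- libraries thus held 4.39% and 45.0% of the WT mean, and their group mean of 13.7 ± 15.9 RPKM (SD, n = 2) has a larger SD than mean. Both lay below both WT libraries. The log2 difference of group means was -2.69 (SE 0.83, limma adjusted p = 0.49), and in the authors' deposited table it was -3.38 with an adjusted p of 2.9e-45. Because of this gap in Rel, the c-Rel-/- libraries are given apart, and counts are given with and without replicate 2.

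The WT libraries differed in a second way. Xist, the long RNA of the inactive X chromosome, was at 0.0111 and 0.0209 RPKM in c-Rel-/- replicates 1 and 2, against 0.0153 and 18.7 RPKM in WT replicates 1 and 2. Ddx3y, a gene of the Y chromosome, was at 23.7 and 27.7 RPKM in the c-Rel-/- libraries, against 27.8 and 2.73 RPKM in the WT libraries. WT replicate 2 stood apart from the other 3 libraries in both genes. Without it 83 of 85 named genes kept the sign of their difference. Genes named because their groups did not overlap could not lose it, so this count is no test. Depths relative to WT replicate 1, read from the steps between low values, were 0.915 and 0.853 in the c-Rel-/- libraries and 0.949 in WT replicate 2. The cells had the markers of CD4 T cells, with 7 genes summing to 2077 and 2051 RPKM in c-Rel-/- libraries and 1625 and 1942 RPKM in WT libraries. The Treg genes Il2ra and Ctla4 stood above 300 RPKM in each of the 4 libraries. Il2ra and the further Treg genes Foxp3 and Ikzf2 were lower in both c-Rel-/- libraries than in both WT libraries, as given below.

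The promoters of 4 genes are shown because they carry the sequence features discussed here. Rel is the deleted gene and is known as a target of NF-kB itself, Ccl22 had the largest fall among the named genes, and Ccnb2 and Ube2c stand for the mitosis genes. Each window runs from 250 bases before to 50 bases after the RefSeq start (GRCm38.p6), 5′ to 3′ on the gene's strand. Capitals in Rel mark the narrow kB motif, which is 3 G, 2 bases of any kind, 3 T and 2 C read on either strand. Capitals in Ccl22 mark the wide kB motif, which is 3 G, 5 bases of any kind and 2 C on either strand and includes every match of the narrow one. Capitals in Ccnb2 and Ube2c mark TTTGAA, the core of the cell cycle homology region, and the box CCAAT, each on either strand, with 1 overlapping pair of boxes in Ube2c.
Rel, chr11:23770920-23771219, minus strand: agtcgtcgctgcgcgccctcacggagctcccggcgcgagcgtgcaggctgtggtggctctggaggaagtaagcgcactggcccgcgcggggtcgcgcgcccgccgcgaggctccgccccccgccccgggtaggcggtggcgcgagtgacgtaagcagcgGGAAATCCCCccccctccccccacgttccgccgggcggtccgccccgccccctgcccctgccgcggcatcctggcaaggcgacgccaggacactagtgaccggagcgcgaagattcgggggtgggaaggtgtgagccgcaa
Ccl22, chr8:94745434-94745733, plus strand: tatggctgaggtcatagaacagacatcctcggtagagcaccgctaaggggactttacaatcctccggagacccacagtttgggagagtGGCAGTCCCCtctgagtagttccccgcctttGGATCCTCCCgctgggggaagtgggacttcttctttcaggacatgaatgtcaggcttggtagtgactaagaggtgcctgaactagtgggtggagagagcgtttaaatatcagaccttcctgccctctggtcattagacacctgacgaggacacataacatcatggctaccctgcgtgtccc
Ccnb2, chr9:70421505-70421804, minus strand: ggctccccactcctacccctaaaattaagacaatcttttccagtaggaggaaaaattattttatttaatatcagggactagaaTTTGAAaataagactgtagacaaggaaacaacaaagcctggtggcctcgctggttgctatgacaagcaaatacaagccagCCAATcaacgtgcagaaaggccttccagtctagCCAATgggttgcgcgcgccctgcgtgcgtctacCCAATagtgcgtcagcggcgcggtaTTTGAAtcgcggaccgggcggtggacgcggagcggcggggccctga
Ube2c, chr2:164769679-164769978, plus strand: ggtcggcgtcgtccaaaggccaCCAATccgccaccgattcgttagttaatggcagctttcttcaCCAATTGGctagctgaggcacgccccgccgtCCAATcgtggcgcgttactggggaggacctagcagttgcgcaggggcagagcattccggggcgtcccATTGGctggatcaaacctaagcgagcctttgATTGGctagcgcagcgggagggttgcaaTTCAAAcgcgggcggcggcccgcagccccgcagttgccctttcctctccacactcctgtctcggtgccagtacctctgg

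The narrow kB motif in the Rel promoter is uncommon, present in 2.17% of the promoters of tested genes that have a RefSeq window, 7568 of 9945. Among the genes the authors' deposited table calls lower, 8 of 180 with a window held it, or 4.44%. The wide motif of Ccl22 was in 70.0% of those promoters and in 72.9% of all tested, so its presence sets no gene apart. A match is a string of letters and not a shown binding site.

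With all libraries in the fit, limma called 0 of 9945 tested genes lower (0%) and 0 higher (0%) in c-Rel-/- Tregs at an adjusted p of 0.05, while 791 had an unadjusted p under that value. The authors' deposited table calls 237 of 14310 rows lower (1.66%) and 69 higher (0.482%) after Benjamini-Hochberg adjustment. Without c-Rel-/- replicate 2, limma called 231 genes lower (2.32%) and 49 higher (0.493%). That fit has a single c-Rel-/- library, so its spread comes from the WT libraries and those given pentoxifylline, the lone library is assumed to vary like them, and the calls speak for replicate 1 only. Without c-Rel-/- replicate 1 limma called 1 gene lower and 0 higher, under the same limit. The word "called", where no test is named, refers in what follows to the authors' deposited p-values, adjusted here, at a threshold of 0.05. The adjustment and the threshold were chosen here and not by the authors. Of these calls, 230 lower (2.31%) and 66 higher (0.664%) fall among the tested genes.

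The c-Rel-/- libraries differed in how far they departed from WT. Over all tested genes the log2 gap between them had an SD of 0.382, against 0.361 between the WT libraries. At least 1 log2 unit apart were 305 genes in the c-Rel-/- libraries and 161 in the WT libraries. Genes called lower in the authors' deposited table stood at a median of 29.7% of the WT mean in c-Rel-/- replicate 1 and 66.3% in replicate 2. Of these 237 genes, 229 were lower in replicate 1 than in replicate 2, and 223 had both c-Rel-/- libraries below both WT libraries, against 16.3% of all tested genes. Genes called higher there stood at a median of 247% of the WT mean in c-Rel-/- replicate 1 and 146% in replicate 2, and 65 of 69 had both c-Rel-/- libraries above both WT libraries, against 24.2% of all tested genes. Over all tested genes, replicate 1 was the lower of the c-Rel-/- libraries in 45.4%. The calls rest on the same libraries, so these shares describe them and test nothing. Replicate 1, which held less Rel, was thus farther from WT in most called genes, and whether the level of Rel accounts for this was not tested.

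**Figure D1:**
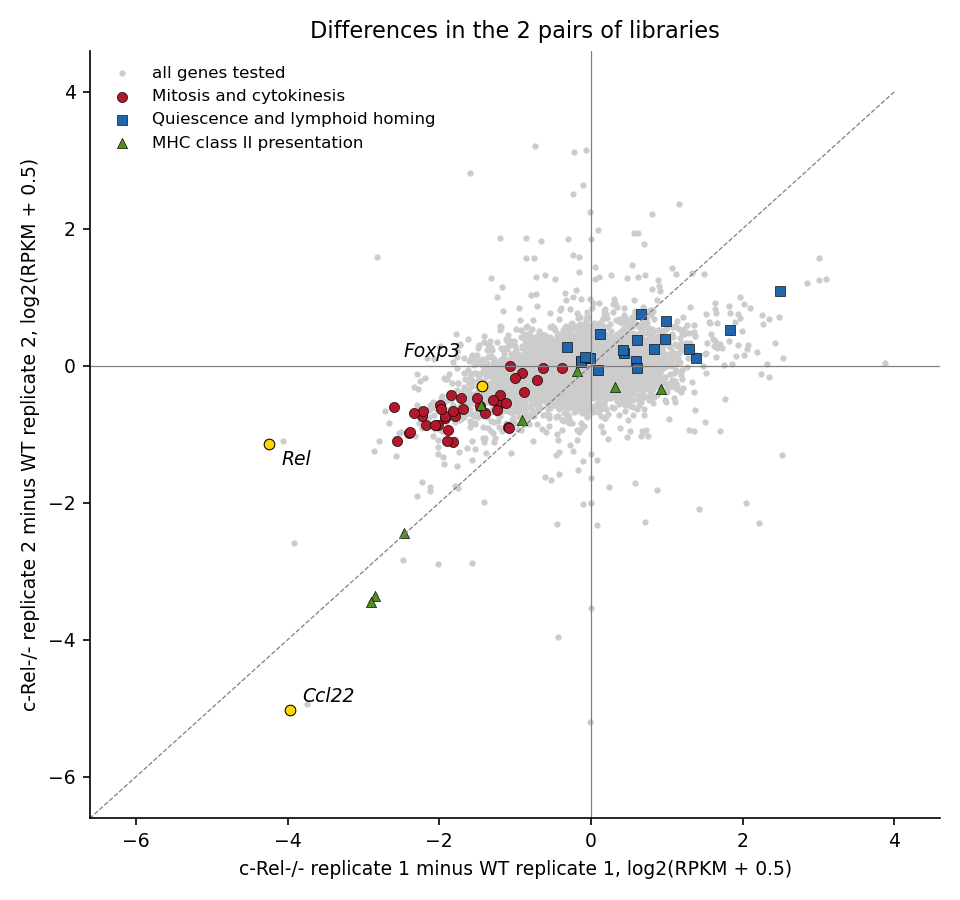
Difference in log2(RPKM + 0.5) for each tested gene between c-Rel-/- replicate 1 and WT replicate 1 (x axis) and between c-Rel-/- replicate 2 and WT replicate 2 (y axis), with 3 gene lists in colour. Mitosis genes lie left of 0 and above the dashed line of equality, that is, farther from WT in replicate 1, while H2-Ab1, H2-Aa, H2-Eb1 and Ccl22 lie close to it or below it.

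The plot of both pairs of libraries uses each WT library once, so its axes share no library. More genes stood far from WT in replicate 1 alone than in both c-Rel-/- libraries. At least 1 log2 unit below both WT libraries stood 26 genes in both c-Rel-/- libraries, 313 in replicate 1 alone and 18 in replicate 2 alone. The 26 were not all alike in both. Log2 differences from the WT mean were -4.25 and -1.14 in Rel, and -3.07 and -3.27 in H2-Ab1. At least 1 log2 unit above both WT libraries stood 9 genes in both, 65 in replicate 1 alone and 11 in replicate 2 alone. The counts of 26 and 9 changed with the pseudocount and the filter, as given under the dependence on processing.

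The largest of the named falls were of mixed function. Ccl22 (chromosome 8, 94745590 to 94751699, plus strand), a chemokine that attracts cells with the receptor CCR4, was at 0.0276 and 0.444 RPKM in c-Rel-/- libraries, against 7.77 and 30.2 RPKM in WT libraries. Both c-Rel-/- libraries were far below both WT libraries, with a log2 difference of -4.50 (SE 0.65, limma adjusted p = 0.26). Lyz2 and Cd40, genes of myeloid cells, dendritic cells or B cells, also stood lower in both c-Rel-/- libraries and highest in WT replicate 2, and their part in the fall of Ccl22 was not tested. Ccl5, a chemokine of activated T cells, was at 1.03 and 3.73 RPKM in c-Rel-/- libraries, against 6.71 and 13.2 RPKM in WT libraries. These were the 2 genes called lower in the authors' deposited table among 9 tested chemokine ligand genes, against 2.31% of all tested genes.

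Slc15a2, a peptide transporter, was at 1.79 and 12.3 RPKM in c-Rel-/- libraries, against 37.6 and 26.9 RPKM in WT libraries (log2 difference -2.58, SE 0.67, limma adjusted p = 0.42). With replicate 1 as the only c-Rel-/- library, and the spread taken from the other groups, its log2 difference was -3.82 (limma adjusted p = 0.00254). Sdc4, the heparan sulfate proteoglycan syndecan 4, was at 1.46 and 3.31 RPKM in c-Rel-/- libraries, against 13.7 and 8.52 RPKM in WT libraries. Fscn1, an actin-bundling protein, was at 0.0749 and 1.14 RPKM in c-Rel-/- libraries, against 2.71 and 11.3 RPKM in WT libraries, the same order of the WT libraries as in Ccl22. In all 3 genes the groups did not overlap, and replicate 1 was the lower c-Rel-/- library.

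**Figure D2:**
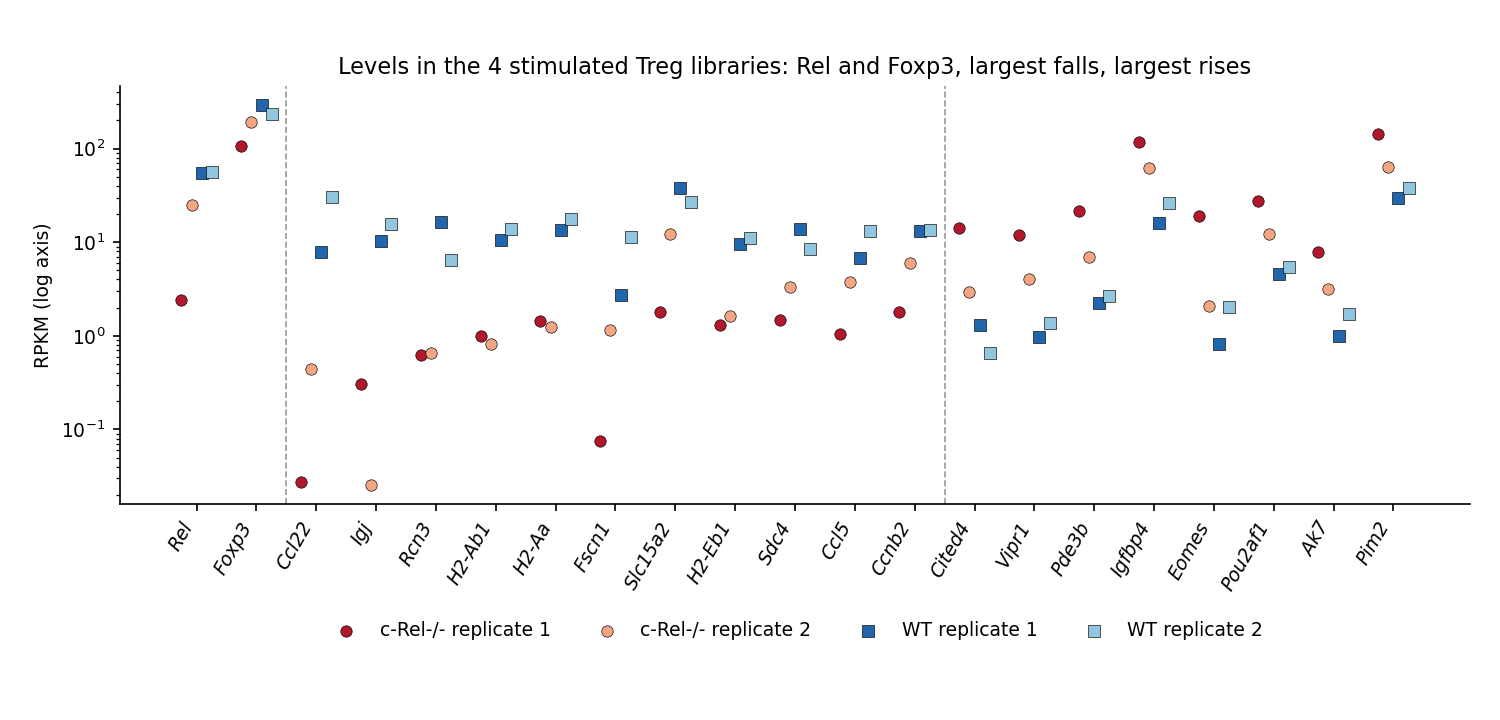
RPKM on a log axis in c-Rel-/- replicates 1 and 2 (circles) and WT replicates 1 and 2 (squares) for Rel and Foxp3, 11 further largest falls and the 8 largest rises. Rcn3, Igj and the class II genes stand low in both c-Rel-/- libraries, whereas Rel, Slc15a2 and Eomes differ widely between them.

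Genes of Treg identity were lower mainly in c-Rel-/- replicate 1. Foxp3 (chromosome X, 7573644 to 7595245, plus strand) was at 107 and 193 RPKM in c-Rel-/- libraries, against 290 and 237 RPKM in WT libraries. Both c-Rel-/- libraries lay below both WT libraries, with a log2 difference of -0.86 (SE 0.28, limma adjusted p = 0.52), and the authors' deposited table gives -1.11 with an adjusted p of 5.44e-05. Of 19 tested genes of the list, that table calls 8 lower and 2 higher, against 2.31% lower and 0.664% higher of all tested genes. The 8 lower were Foxp3, Il2ra, Ikzf2, Ikzf4, Lrrc32, Nrp1, Tnfrsf18 and Swap70. Il2ra, the high-affinity chain of the interleukin 2 receptor, was at 450 and 812 RPKM in c-Rel-/- libraries, against 850 and 842 RPKM in WT libraries. Ikzf2, the transcription factor Helios, was at 49.3 and 96.2 RPKM in c-Rel-/- libraries, against 117 and 101 RPKM in WT libraries. Lrrc32, which encodes GARP, the surface anchor of latent TGF-beta, was at 122 and 228 RPKM in c-Rel-/- libraries, against 302 and 310 RPKM in WT libraries. In Il2ra, Ikzf2 and Lrrc32 replicate 1 was far below WT, while replicate 2 was at 95.9% of the WT mean in Il2ra and at 74.5% in Lrrc32. Ctla4, an inhibitory receptor of Tregs, was not called and its groups overlapped, at 366 and 570 RPKM in c-Rel-/- libraries and 613 and 486 RPKM in WT libraries. The list's median log2 difference was -0.88 in replicate 1 and -0.0072 in replicate 2, against 0.070 and 0.034 over all tested genes. Limma called 0 of the 19 with both c-Rel-/- libraries, and 5 lower and 2 higher with replicate 1 as the only c-Rel-/- library.

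Effector and suppressive genes showed the same order of the libraries. Over all tested genes, 2.31% are called lower and 0.664% higher in the authors' deposited table. Of 26 tested, the authors' deposited table calls 11 lower and 2 higher, and limma called 0 with both c-Rel-/- libraries, and 10 lower and 1 higher with replicate 1 as the only c-Rel-/- library. Klrg1, a receptor of terminally differentiated effector Tregs, was at 3.16 and 12.4 RPKM in c-Rel-/- libraries, against 17.1 and 22.6 RPKM in WT libraries. Ebi3, a subunit of interleukins 27 and 35, was at 3.67 and 10.2 RPKM in c-Rel-/- libraries, against 15.8 and 20.2 RPKM in WT libraries. Cd83, a surface protein of activated lymphocytes and dendritic cells, was at 20.4 and 50.8 RPKM in c-Rel-/- libraries, against 71.7 and 81.4 RPKM in WT libraries. In all 3 genes the c-Rel-/- libraries lay below both WT libraries, and replicate 1 was at 15.9%, 20.4% and 26.6% of the WT mean. Cd80, a costimulatory ligand of CD28 and CTLA-4, was at 0.382 and 1.29 RPKM in c-Rel-/- libraries, against 5.59 and 3.34 RPKM in WT libraries. Gzmb, the protease granzyme B, was at 70.7 and 156 RPKM in c-Rel-/- libraries, against 171 and 214 RPKM in WT libraries. The 2 genes called higher in the authors' deposited table were Lag3 and Irf4. Lag3, an inhibitory receptor that binds class II molecules, was at 210 and 119 RPKM in c-Rel-/- libraries, against 90.7 and 72.5 RPKM in WT libraries. Il10, a suppressive cytokine, was not called, at 131 and 176 RPKM in c-Rel-/- libraries and 144 and 89.0 RPKM in WT libraries. The list's median log2 difference was -1.01 in replicate 1 and -0.066 in replicate 2.

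Receptors of the TNF and interleukin families had more genes called lower than higher, as did all tested genes (2.31% lower, 0.664% higher). Tnfrsf8, which encodes CD30, was at 10.6 and 36.0 RPKM in c-Rel-/- libraries, against 69.4 and 65 RPKM in WT libraries (log2 difference -1.75, SE 0.54, limma adjusted p = 0.49). Of 16 tested TNF receptor genes, 5 had both c-Rel-/- libraries below both WT libraries and 3 had both above. The shares over all tested genes were 16.3% and 24.2%. The authors' deposited table calls 3 of the 16 lower and 0 higher, namely Tnfrsf8, Tnfrsf9 and Tnfrsf18. Cd40, which is expressed by B cells and dendritic cells, missed the filter on low values and is called lower in that table too, at 0.119 and 0.0955 RPKM in c-Rel-/- libraries and 0.787 and 2.95 RPKM in WT libraries. Il1r2, the decoy receptor of interleukin 1, was at 27.1 and 63.7 RPKM in c-Rel-/- libraries, against 114 and 121 RPKM in WT libraries. Il18r1, a chain of the interleukin 18 receptor, was at 17.6 and 54.8 RPKM in c-Rel-/- libraries, against 55.2 and 57.2 RPKM in WT libraries. Replicate 2 was thus near WT in Il18r1 and at 54.1% of the WT mean in Il1r2. Of 32 tested interleukin receptor and JAK-STAT feedback genes, the authors' deposited table calls 5 lower and 0 higher. In the integrin and adhesion list it calls 3 of 18 lower and 0 higher, namely Itga4, Itgae and Icam1. Among 12 tested chemokine receptors it calls only Ccr7, and that one higher.

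Mitosis genes had the lowest median of the 21 pathway lists by group means and in c-Rel-/- replicate 1, and were nearly uniform in direction. In c-Rel-/- replicate 2 the class II list had a lower median log2 difference, -0.81 against -0.65. Of 40 listed genes 39 passed the filter, and 38 of these had both c-Rel-/- libraries below both WT libraries, with Cenpk the exception. The share over all tested genes was 16.3%. The authors' deposited table calls 29 of the 39 lower and 0 higher, against 2.31% lower and 0.664% higher of all tested genes. The 39 genes summed to 137 and 296 RPKM in c-Rel-/- libraries, against 421 and 459 RPKM in WT libraries. Ccnb2, a cyclin that drives entry into mitosis, was at 1.81 and 5.98 RPKM in c-Rel-/- libraries, against 13.1 and 13.4 RPKM in WT libraries (log2 difference -1.83, SE 0.43, limma adjusted p = 0.42). Mki67, which encodes the proliferation antigen Ki-67, was at 3.14 and 11.0 RPKM in c-Rel-/- libraries, against 21.5 and 17.0 RPKM in WT libraries. Ube2c, a ubiquitin-conjugating enzyme of the anaphase-promoting complex, was at 5.95 and 21.9 RPKM in c-Rel-/- libraries, against 33.3 and 43.3 RPKM in WT libraries. In each of the 39 genes c-Rel-/- replicate 1 was below c-Rel-/- replicate 2. As a share of the WT mean, the 39 genes had a median of 22.8% in replicate 1, with a range of 12.7% to 77.6%, and a median of 61% in replicate 2, with a range of 45.2% to 103%. Limma called 0 of the 39 with both c-Rel-/- libraries, and 33 lower and 0 higher with replicate 1 as the only c-Rel-/- library. In bulk RNA, fewer dividing cells and less RNA per dividing cell cannot be told apart.

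**Figure D3:**
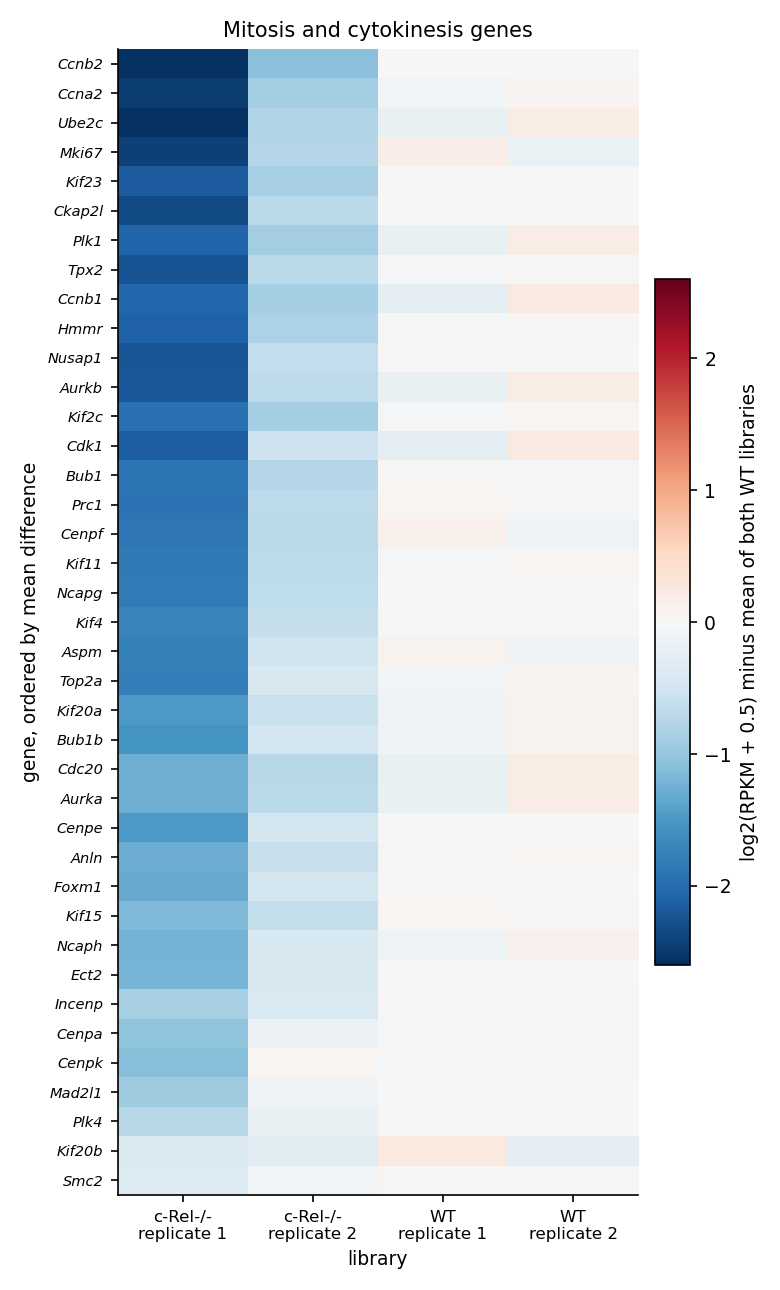
Difference of each library from the mean of both WT libraries in log2(RPKM + 0.5), by colour, for the 39 tested mitosis genes (rows) in c-Rel-/- replicates 1 and 2 and WT replicates 1 and 2 (columns). Every row is darkest in c-Rel-/- replicate 1, and the WT libraries stay near 0 except in a few rows.

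The heat map shows the small distance between the WT libraries for most mitosis genes. Of the 39 promoters, 33 had a RefSeq window. TTTGAA was in 25 of these (75.8%), against 14% of the promoters of tested genes, and CCAAT was also in 25 (75.8%), against 43.7%. Both are known elements of genes expressed in G2 and mitosis, so their presence follows from the choice of the list. The narrow kB motif was in 1 of the 33. DNA replication genes differed less. Of 34 tested, 18 had both c-Rel-/- libraries below both WT libraries, against 16.3% of all tested genes. The authors' deposited table calls 6 lower and 0 higher, against 2.31% lower and 0.664% higher of all tested genes. Rrm2, a subunit of ribonucleotide reductase, was at 8.50 and 24.3 RPKM in c-Rel-/- libraries, against 29.0 and 37.8 RPKM in WT libraries. Tk1, thymidine kinase 1, was at 4.03 and 6.17 RPKM in c-Rel-/- libraries, against 13.6 and 14.9 RPKM in WT libraries. The list's median share of the WT mean was 64.0% in replicate 1 and 85.9% in replicate 2. The difference between both lists was not tested.

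**Figure D4:**
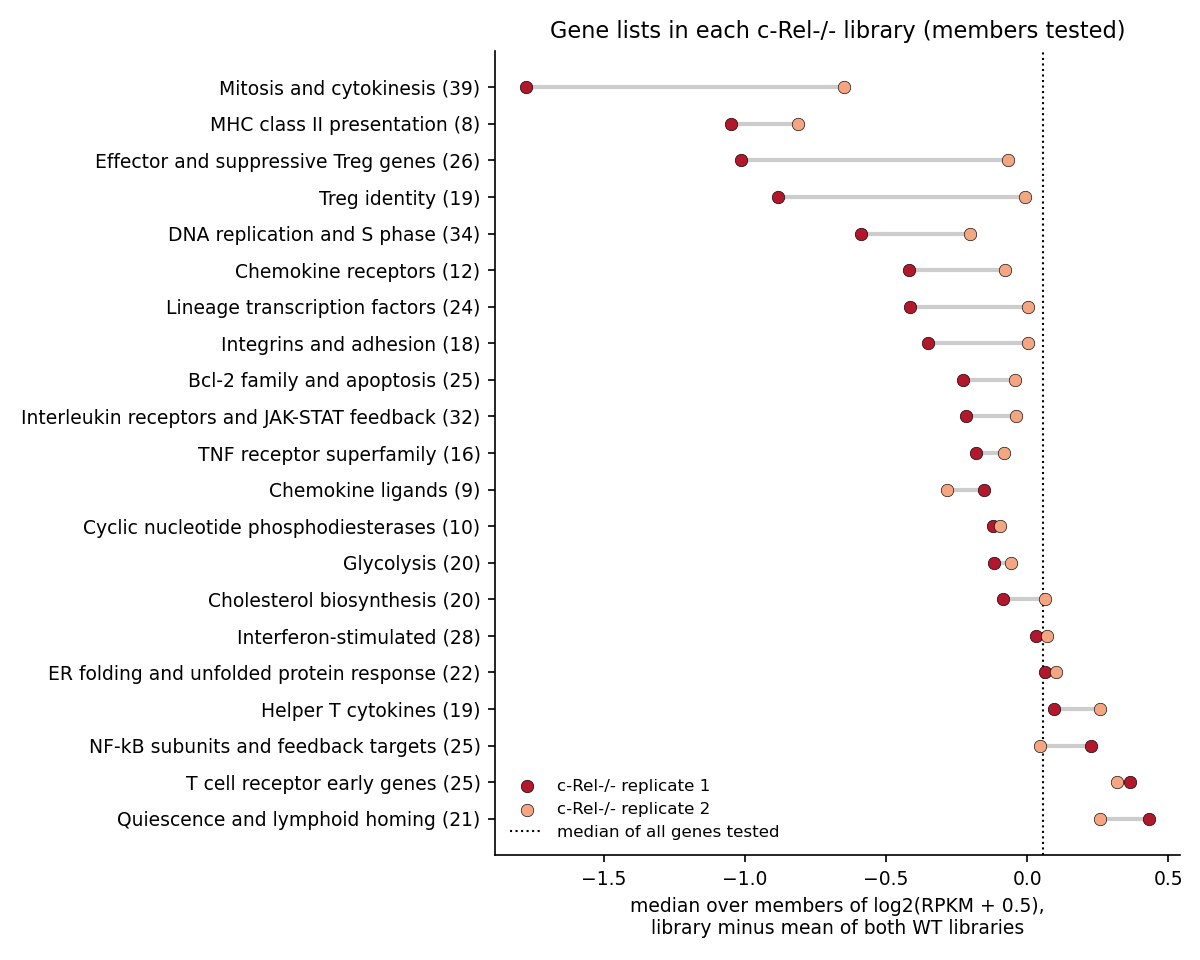
Median over the tested members of each pathway list of the difference from the mean of both WT libraries in log2(RPKM + 0.5), for c-Rel-/- replicate 1 (dark) and c-Rel-/- replicate 2 (light), with the number of tested members in parentheses. Mitosis (-1.77 and -0.65) and class II presentation (-1.05 and -0.81) lie left of 0 in both libraries, while Treg identity and effector genes do so mainly in replicate 1.

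Genes of quiescence and lymphoid homing went the other way. Of 21 tested, the authors' deposited table calls 5 higher and 0 lower, against 0.664% higher and 2.31% lower of all tested genes. In 12 both c-Rel-/- libraries lay above both WT libraries and in 0 both lay below. The shares over all tested genes were 24.2% above and 16.3% below. Tcf7, which encodes the transcription factor TCF-1, was at 459 and 207 RPKM in c-Rel-/- libraries, against 129 and 143 RPKM in WT libraries (log2 difference 1.18, SE 0.34, limma adjusted p = 0.46). Foxp1, a transcription factor that maintains T cell quiescence, was at 78.2 and 60.9 RPKM in c-Rel-/- libraries, against 39.0 and 38.5 RPKM in WT libraries. Ccr7, the receptor that guides T cells into lymph nodes, was at 747 and 394 RPKM in c-Rel-/- libraries, against 285 and 364 RPKM in WT libraries. Bach2 and Satb1, transcription factors of resting T cells, complete the 5. Limma called 0 of the 21 with both c-Rel-/- libraries, and 5 higher and 0 lower with replicate 1 as the only c-Rel-/- library. The list's median log2 difference was 0.43 in replicate 1 and 0.26 in replicate 2.

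The largest of the named rises were of mixed function. Pde3b, a cyclic nucleotide phosphodiesterase, was at 21.7 and 7.03 RPKM in c-Rel-/- libraries, against 2.26 and 2.67 RPKM in WT libraries (log2 difference 2.13, SE 0.44, limma adjusted p = 0.42). It was the only one of 10 tested phosphodiesterase genes called in the authors' deposited table. Igfbp4, an insulin-like growth factor binding protein, was at 117 and 61.9 RPKM in c-Rel-/- libraries, against 15.9 and 26.4 RPKM in WT libraries. Vipr1, a receptor of vasoactive intestinal peptide, was at 12.1 and 4.04 RPKM in c-Rel-/- libraries, against 0.969 and 1.39 RPKM in WT libraries. In Pde3b, Igfbp4 and Vipr1 both c-Rel-/- libraries were above both WT libraries. Pou2af1, a coactivator of octamer-binding factors, was at 27.4 and 12.1 RPKM in c-Rel-/- libraries, against 4.54 and 5.48 RPKM in WT libraries. Pim2, a survival kinase, was at 144 and 64.2 RPKM in c-Rel-/- libraries, against 29.5 and 38.1 RPKM in WT libraries. Cited4, a transcriptional cofactor, was at 14.1 and 2.94 RPKM in c-Rel-/- libraries, against 1.31 and 0.651 RPKM in WT libraries. Ak7, an adenylate kinase, was at 7.90 and 3.17 RPKM in c-Rel-/- libraries, against 1.00 and 1.73 RPKM in WT libraries.

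Eomes, a transcription factor of cytotoxic and memory T cells, rested on 1 library. It was at 19.0 and 2.09 RPKM in c-Rel-/- libraries, against 0.824 and 2.01 RPKM in WT libraries. Its log2 difference from the WT mean was 3.42 in replicate 1 and 0.51 in replicate 2. Lineage transcription factors moved both ways, with 6 of 24 tested genes called lower and 4 higher in the authors' deposited table. The shares over all tested genes were 2.31% lower and 0.664% higher. Lower were Batf, Ahr, Gata3, Rora, Ikzf2 and Ikzf4, and higher were Eomes, Tcf7, Irf4 and Bcl6. Batf, a partner of IRF4 at shared DNA sites, was at 48.9 and 95.9 RPKM in c-Rel-/- libraries, against 124 and 154 RPKM in WT libraries. Irf4, the factor induced by antigen receptor signals, was at 250 and 158 RPKM in c-Rel-/- libraries, against 103 and 134 RPKM in WT libraries. The pair of partners thus stood on opposite sides of WT, with both groups apart in each gene.

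Early genes of T cell receptor signalling were not lower as a group. Of 25 tested, the authors' deposited table calls 5 higher and 1 lower, against 0.664% higher and 2.31% lower of all tested genes. In 14 both c-Rel-/- libraries lay above both WT libraries and in 3 both lay below. The shares over all tested genes were 24.2% above and 16.3% below. Limma called 0 with both c-Rel-/- libraries, and 1 higher and 1 lower with replicate 1 as the only c-Rel-/- library. The list's median log2 difference was 0.36 in replicate 1 and 0.32 in replicate 2. Dusp6, a phosphatase that limits ERK, was at 26.5 and 22.9 RPKM in c-Rel-/- libraries, against 8.90 and 13.3 RPKM in WT libraries. Spry1, an inhibitor of receptor signalling, was at 152 and 104 RPKM in c-Rel-/- libraries, against 58.5 and 76.4 RPKM in WT libraries. Cd69, an early surface marker of activation, was at 139 and 77.9 RPKM in c-Rel-/- libraries, against 57.5 and 67.6 RPKM in WT libraries. The c-Rel-/- libraries lay above both WT libraries in all 3. Egr3 and Irf4 were the other genes called higher, and Tnfrsf9 the one called lower, in the authors' deposited table. Among 19 tested helper cytokines, that table calls Tnf and Il21 higher and 0 lower. Tnf was at 112 and 70.5 RPKM in c-Rel-/- libraries, against 44.9 and 56.1 RPKM in WT libraries. Il21, a cytokine of follicular helper T cells, was at 2.40 and 1.23 RPKM in c-Rel-/- libraries, against 0.244 and 0.364 RPKM in WT libraries. Il2, a known c-Rel target in conventional T cells, was not called, at 11.5 and 3.41 RPKM in c-Rel-/- libraries and 1.84 and 3.89 RPKM in WT libraries.

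Other NF-kB genes went both ways. Of 25 tested subunit and feedback genes, 5 had both c-Rel-/- libraries below both WT libraries, Rel among them, and 9 had both above. The shares over all tested genes were 16.3% and 24.2%. Of the 25, the authors' deposited table calls Rel lower and Relb and Nfkbid higher, against 2.31% lower and 0.664% higher of all tested genes. Nfkbid, which encodes the nuclear inhibitor-like protein IkBNS, was at 130 and 86.8 RPKM in c-Rel-/- libraries, against 53.8 and 57.4 RPKM in WT libraries. Relb, the subunit of the alternative pathway, was at 104 and 75.9 RPKM in c-Rel-/- libraries, against 53.4 and 58.8 RPKM in WT libraries. Rela, which encodes p65, was at 109 and 97.1 RPKM in c-Rel-/- libraries and 83.7 and 92.1 RPKM in WT libraries, and it was not called. Nfkbia, the classical inhibitor IkB-alpha, was at 194 and 203 RPKM in c-Rel-/- libraries and 227 and 244 RPKM in WT libraries, not called. Tnfaip3, the feedback enzyme A20, was at 59.4 and 68.2 RPKM in c-Rel-/- libraries and 85.1 and 80.4 RPKM in WT libraries, also not called. The list's median log2 difference was 0.088, against 0.055 over all tested genes.

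Regulators of apoptosis were called in both directions, 2 of 25 tested lower and 2 higher in the authors' deposited table. The shares over all tested genes were 2.31% lower and 0.664% higher. Bcl2l11, which encodes the pro-apoptotic protein Bim, was at 113 and 67.6 RPKM in c-Rel-/- libraries, against 43.5 and 47.8 RPKM in WT libraries. Bcl2l1, which encodes the survival protein Bcl-xL and is a known NF-kB target, was at 42.9 and 73.1 RPKM in c-Rel-/- libraries, against 83.6 and 109 RPKM in WT libraries. Fasl, the ligand of the death receptor Fas, was at 27.9 and 12.9 RPKM in c-Rel-/- libraries, against 6.66 and 8.93 RPKM in WT libraries. In these 3 the groups did not overlap. The authors' deposited table calls 0 genes in either direction among 28 interferon-stimulated, 20 glycolysis, 20 cholesterol biosynthesis and 22 endoplasmic reticulum folding genes tested. With replicate 1 as the only c-Rel-/- library, limma called 1 interferon-stimulated gene higher and 0 genes of the other 3 lists. Their median log2 differences were 0.061, -0.094, -0.0059 and 0.12.

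A group of genes, picked out after their values were seen, stood about equally low in both c-Rel-/- libraries, whose Rel levels differ. H2-Ab1, H2-Aa and H2-Eb1, chains of the class II molecules that present antigen to CD4 T cells, belong to it. H2-Ab1 was at 1.00 and 0.808 RPKM in c-Rel-/- libraries, against 10.7 and 13.8 RPKM in WT libraries (log2 difference -3.17, SE 0.30, limma adjusted p = 0.11). H2-Aa was at 1.45 and 1.25 RPKM in c-Rel-/- libraries, against 13.6 and 17.6 RPKM in WT libraries. H2-Eb1 was at 1.32 and 1.64 RPKM in c-Rel-/- libraries, against 9.50 and 11.1 RPKM in WT libraries. The 3 genes lie close together on chromosome 17. Cd74 encodes the invariant chain that accompanies class II molecules. With it they are the 4 of 8 tested class II genes called lower in the authors' deposited table, against 2.31% of all tested genes. Igj, the joining chain of secreted IgM and IgA, was at 0.309 and 0.0255 RPKM in c-Rel-/- libraries, against 10.3 and 15.6 RPKM in WT libraries (log2 difference -4.34, SE 0.56, limma adjusted p = 0.17). Rcn3, a calcium-binding protein of the endoplasmic reticulum, was at 0.619 and 0.664 RPKM in c-Rel-/- libraries, against 16.4 and 6.50 RPKM in WT libraries. Differences of genes near 0 on the log2(RPKM + 0.5) scale depend on the added value.

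Most B cell and NK markers were under 1 RPKM in each of the 4 libraries, and several markers of other cells were lower in c-Rel-/- libraries. Lyz2, the lysozyme of myeloid cells, was at 0.0472 and 0.0507 RPKM in c-Rel-/- libraries, against 1.12 and 3.55 RPKM in WT libraries. The 10 B cell markers in the table summed to 5.48 and 5.29 RPKM in c-Rel-/- libraries, against 8.13 and 10.9 RPKM in WT libraries, with 2 and 3 of them at 0, against 0 and 1. Of these sums, the 2 genes past the filter held 5.05 and 4.97 RPKM, against 6.04 and 9.14 RPKM. The 15 myeloid and dendritic markers summed to 77.7 and 89.4 RPKM in c-Rel-/- libraries, against 95.3 and 145 RPKM in WT libraries, with 5 and 4 at 0, against 1 and 1. The 10 NK and cytotoxic markers summed to 17.3 and 36.0 RPKM in c-Rel-/- libraries, against 38.0 and 57.5 RPKM in WT libraries. Most of this came from the 2 genes past the filter, Nkg7 and Prf1, at 14.1 and 34.9 RPKM, against 36.5 and 56.1 RPKM. In the authors' deposited table WT aTregs over rTregs, sorted Tregs described below, had log2 fold changes of 2.49 in Nkg7 and -1.86 in Prf1. The 6 plasma cell markers, which include Igj and Irf4, summed to 260.0 and 177 RPKM in c-Rel-/- libraries, against 138 and 169 RPKM in WT libraries. The 3 CD8 markers summed to 26 and 16 RPKM in c-Rel-/- libraries, against 14.4 and 16.5 RPKM in WT libraries, and both erythroid markers stayed under 1 RPKM in each library. The 13 stress and dissociation genes summed to 964 and 860.4 RPKM in c-Rel-/- libraries, against 781 and 1017 RPKM in WT libraries. The B cell, myeloid and NK sums were lower in both c-Rel-/- libraries than in both WT libraries. The NK sum came mostly from Nkg7 and Prf1. Other NK markers, namely Klrd1, Klrk1, Gzmk and Klrb1c, had log2 fold changes of 0.75, 0.33, 0.28 and 0.074 in the authors' deposited table, none called. H2-Ab1, H2-Aa, H2-Eb1, Igj, Rcn3, Ccl22 and Fscn1 were also lower in both c-Rel-/- libraries. The part of such other cells in those results was not tested.

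The series also holds Tregs sorted from spleen and lymph nodes without culture, as resting (rTreg, CD44 low) and activated (aTreg, CD44 high) cells. None of these libraries is among the stimulated ones, and whether they come from other animals is not known here. In WT cells the authors' deposited table calls 127 of the 206 genes that were lower in stimulated c-Rel-/- Tregs and are tested in both sets higher in aTregs than in rTregs, or 61.7%, against 8.14% of 9284 genes tested in both sets. These 127 are 16.8% of all genes called higher in aTregs there. It calls 2 of the 206, or 0.971%, lower in aTregs, against 3.97% of all. Of 65 genes higher in stimulated c-Rel-/- Tregs, it calls 19 lower in aTregs, or 29.2%, which are 5.15% of all genes called lower there, and 6 higher, or 9.23%. Klrg1, Tnfrsf8 and Il1r2 are among those higher in WT aTregs, with log2 fold changes over rTregs of 6.17, 5.67 and 4.66 in the authors' deposited table. Igfbp4, Vipr1, Eomes and Satb1 are among those lower, with -2.16, -2.49, -2.33 and -2.74 in that table.

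Loss of c-Rel in the sorted cells moved few genes past an adjusted p of 0.05 in the authors' deposited comparisons. The authors' deposited table calls 2 genes lower (0.0135%) and 2 higher (0.0135%) in c-Rel-/- rTregs, and 18 lower (0.121%) and 59 higher (0.398%) in c-Rel-/- aTregs. Among the 206 genes lower in stimulated cells, it calls Rel and Bcam lower in rTregs, or 0.971%, against 2 of the 9284 genes tested in both sets (0.0215%). In aTregs it calls Rel, Slc7a10, Tnfrsf8 and Fut10 lower, or 1.94% of the 206, against 13 of the 9284 (0.14%). Rel is the deleted gene, so its calls in all sets follow from the genotype and are no measure of agreement. Apart from Rel, the shared calls are Bcam in rTregs and Slc7a10, Tnfrsf8 and Fut10 in aTregs. Tnfrsf8 had adjusted RPKM of 3.95 and -0.16 in c-Rel-/- aTregs, against 12.7, 15.6 and 11.8 in WT aTregs. These deposited values were adjusted by the authors in a way given nowhere in the headers or labels, which can put them below 0. In aTregs 67 of the 206 genes, or 32.5%, had each c-Rel-/- library below each WT library, against 13.5% of all, and 9 of the 206, or 4.37%, had each above, against 11.7% of all. In rTregs 30 of the 206, or 14.6%, had each c-Rel-/- library below each WT library, against 14.1% of all, and 9 had each above, against 12.6% of all. The authors' deposited log2 fold changes were below 0 in 46.6% of the 206 in rTregs, against 54.8% of all, and in 58.3% in aTregs, against 47.6% of all. Of the 65 genes higher in stimulated cells, the authors' deposited table calls Il21 and Eomes higher in c-Rel-/- aTregs, or 3.08%, against 0.205% of all, and 0 in rTregs.

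H2-Ab1, H2-Aa and H2-Eb1 are called higher in c-Rel-/- aTregs in the authors' deposited table, the opposite side from stimulated cells. Markers of dendritic, myeloid and NK cells were higher in the same libraries. That table calls 5 of 17 myeloid and dendritic markers higher in c-Rel-/- aTregs and 0 lower, namely Siglech, Tyrobp, Flt3, Itgax and Fcer1g, with log2 fold changes of 5.09, 3.26, 2.80, 2.63 and 2.25. It calls 2 of 10 NK and cytotoxic markers higher and 0 lower, Klrd1 with 2.98 and Klrk1 with 2.63. Siglech, a receptor of plasmacytoid dendritic cells, was at 4.34 and 2.97 adjusted RPKM in c-Rel-/- aTregs, against 0.719, 0.0279 and -0.938 in WT aTregs. Tyrobp, an adaptor of myeloid and NK cell receptors, was at 11.7 and 7.41 adjusted RPKM in c-Rel-/- aTregs, against 2.01, 0.666 and -1.86 in WT aTregs. The groups did not overlap in either gene. Summed over all 17 myeloid and dendritic markers the groups overlapped, at 126 and 94.2 adjusted RPKM in c-Rel-/- aTregs and 98.3, 88.2 and 104 in WT aTregs, with 0 and 1 of them at or below 0, against 3, 2 and 6. The 10 NK and cytotoxic markers summed to 211 and 90.0 adjusted RPKM in c-Rel-/- aTregs and 122, 59.6 and 61.8 in WT aTregs, with 0 and 1 at or below 0, against 0, 3 and 2. The 10 B cell markers summed to 24.1 and 24.5 adjusted RPKM in c-Rel-/- aTregs and 25.8, 29.7 and 17.5 in WT aTregs, and none was called. The part of these cells in the class II values of aTregs was not tested.

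**Figure D5:**
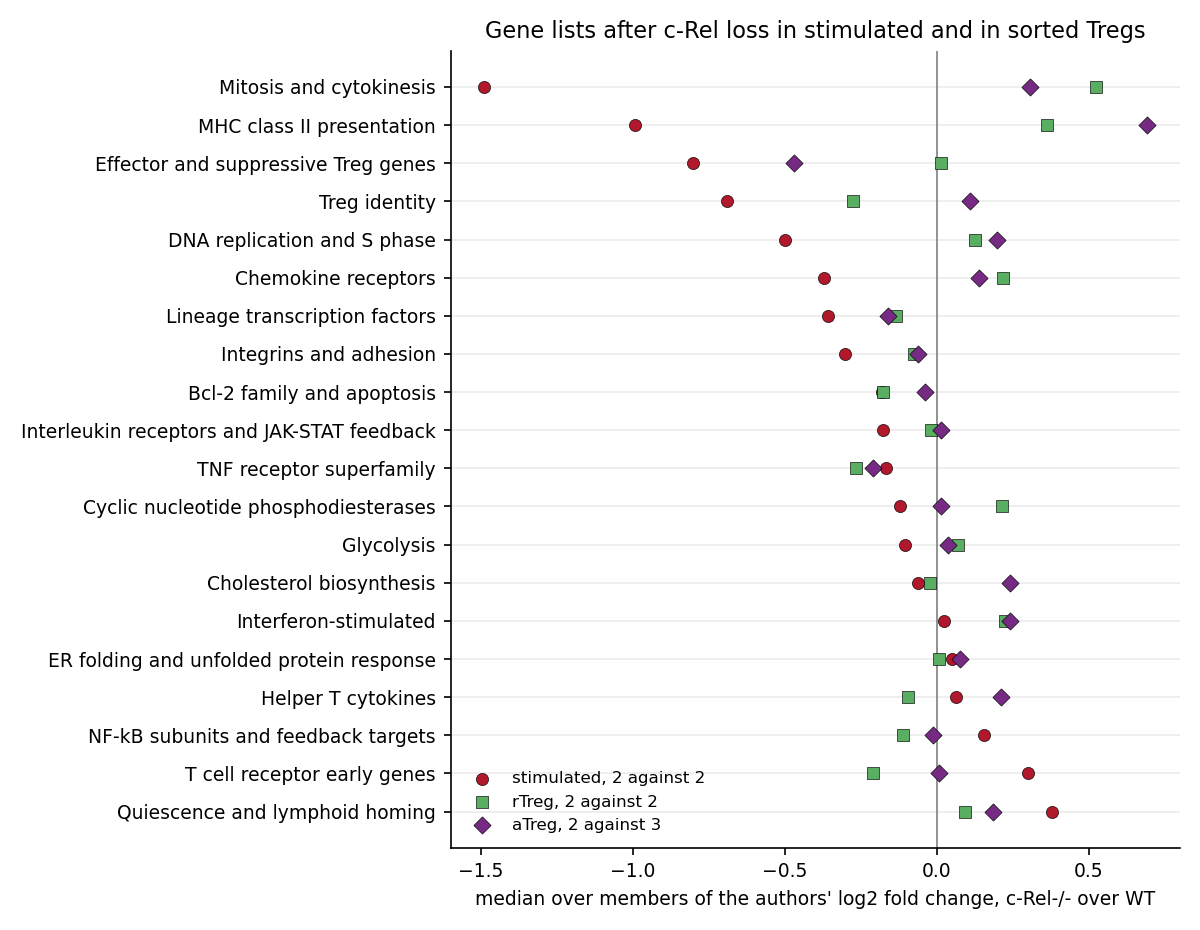
Median over the members of each list of the log2 fold change of c-Rel-/- over WT in the authors' deposited tables, in stimulated Tregs (circles), sorted rTregs (squares) and sorted aTregs (diamonds), for lists with at least 8 members measured in the sorted set. The mitosis list lies left of 0 in stimulated cells and right of 0 in both sorted subsets, while effector genes lie left of 0 in stimulated cells and aTregs.

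The mitosis genes were not lower in sorted cells, as the plot of stimulated and sorted cells shows. The median of their log2 fold changes in the authors' deposited tables was -1.49 in stimulated Tregs, 0.52 in rTregs and 0.31 in aTregs, and 3 of 39 were below 0 in each sorted subset. The authors' deposited table calls 0 of them in either direction in either sorted subset. The effector list had medians of -0.80 in stimulated Tregs, 0.014 in rTregs and -0.47 in aTregs in these tables. The sorted and stimulated sets were normalized separately, so differences between these medians were not tested.

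Pentoxifylline, the drug given to other WT cells of the stimulated set, was compared with the same WT libraries, so its values share the controls of the c-Rel comparison. In the authors' deposited table Ccl22 had a log2 fold change of -5.35 in c-Rel-/- cells (adjusted p = 9.78e-23) and -4.89 with pentoxifylline (adjusted p = 1.5e-20). H2-Ab1 had -3.16 in c-Rel-/- cells (adjusted p = 3.74e-09) and -1.92 with pentoxifylline (adjusted p = 0.00019) in that table, and H2-Aa had -3.03 (adjusted p = 1.75e-09) and -1.52 (adjusted p = 0.00239). Il1r2 had -1.80 in c-Rel-/- cells (adjusted p = 2.15e-11) and -2.15 with pentoxifylline (adjusted p = 3.3e-18) in that table. These genes thus stood below WT in both comparisons. In the authors' deposited table Tnfrsf8 also had a log2 fold change of -2.14 in c-Rel-/- cells (adjusted p = 4.05e-14) and -2.33 with pentoxifylline (adjusted p = 1.63e-18). Foxp3 had -1.11 in c-Rel-/- cells (adjusted p = 5.44e-05) and -0.22 with pentoxifylline (adjusted p = 0.61) in that table. Mki67 had -2.08 in c-Rel-/- cells (adjusted p = 1.09e-15) and 0.29 with pentoxifylline (adjusted p = 0.48) in that table. Slc15a2 had -2.81 in c-Rel-/- cells (adjusted p = 1.26e-18) and 1.16 with pentoxifylline (adjusted p = 0.000302) in that table.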

How the data were processed

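RNA was sequenced from 19 libraries of mouse Tregs. STAR, DESeq2 1.10.1 and the build mm10 appear in the submitters' processing notes without roles; whether counting used strand, and how reads shared by similar genes were counted, is not given in the sources used here. The authors deposited RPKM per library for the stimulated set, adjusted RPKM (a score that can be negative) for the sorted set, and log2 fold changes and p-values of their own comparisons, per the file headers. Numbers use decimal commas. The 20 rows without library values, whose symbols had turned into dates, were left out. The filter kept 9945 genes that reached 1 RPKM in 2 or more of the 6 stimulated libraries.

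Log2(RPKM + 0.5) was compared in limma 3.58.1 (R 4.3.3, group means of the 6 libraries, trend, two-sided, Benjamini-Hochberg, threshold 0.05). The procedure was also run on simulated data with equal changes in both c-Rel-/- libraries. These data differ in that, so the run does not vouch for it here. Benjamini-Hochberg adjustment, with a threshold of 0.05, was applied here to the authors' deposited p-values over all rows. This gave the calls named after their table. Adding 0.5 understates changes of low genes. The sorted values, which can be negative, were not put on a log scale, and the authors' deposited log2 fold changes are given there. RPKM steps fell on whole reads within 0.02 in 99.4% of 2416 genes with a mean under 0.1 RPKM, which gave relative depths. Read totals are unknown, so no counting intervals are given. Deviations from the group mean in c-Rel-/- and WT libraries of the same replicate number had a correlation of -0.065, which cannot exclude pairing. The pentoxifylline libraries were not checked. The 6 sex-linked genes summed to 87.4 and 28.4 RPKM in WT replicates 1 and 2. Their sums were 107 and 41.2 RPKM with pentoxifylline, and 79.5 and 92.2 RPKM in c-Rel-/- libraries. Named were Rel, Foxp3, the 12 largest falls and 8 largest rises among the authors' calls with 5 RPKM and no overlap, and up to 4 members of each list; Cd40, Cd69, Gzmb, Lag3, Il2, Il10, Ctla4, Ikzf2, Xist and other NF-kB genes were added after their values were seen. A few named genes are not reported here. Members and lists were chosen with earlier results of these data known. Alternatives were pseudocounts, filters, scaling, robust variance, a fit of only the 4 libraries, a replicate block, and each library left out in turn. Gene positions are from GENCODE for GRCm38 and promoters from RefSeq.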

Additional observations from a re-analysis of the deposited data

Results flagged for a closer look

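For 8 named genes every c-Rel-/- library of one kind of cell moved one way from WT and every c-Rel-/- library of another kind moved the opposite way. The difference between the kinds of cell was not tested for any of them, and the sorted values carry the authors' undescribed adjustment. Over all genes tested in both sets, each c-Rel-/- library lay below each WT library in 14.1% in rTregs and 13.5% in aTregs. Each lay above in 12.6% and 11.7%. Whether 8 opposite cases exceed what such shares give was not tested. H2-Ab1 was at 45.6 and 20.6 adjusted RPKM in c-Rel-/- aTregs, against 8.24, 1.88 and -3.00 in WT aTregs. In the authors' deposited tables its log2 fold change was 2.62 in aTregs and -3.16 in stimulated cells. The same pair in those tables was 2.82 and -3.03 in H2-Aa, 2.83 and -2.49 in H2-Eb1, and 0.89 and -0.89 in Cd74, which is called in stimulated cells only. Siglech (5.09), Tyrobp (3.26), Flt3 (2.80) and Itgax (2.63) are markers of dendritic or myeloid cells, and Klrd1 (2.98) and Klrk1 (2.63) of NK cells. All are called higher in the same c-Rel-/- aTregs in the authors' deposited table. In all it calls 5 of 17 myeloid and dendritic markers and 2 of 10 NK and cytotoxic markers higher. Summed over each list the groups overlapped, as given above. The part of such cells in the class II values was not tested. WT aTreg replicate 3 was the lowest of the 5 libraries in these 4 genes.

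In rTregs the opposite sign was smaller, and none of the genes is called there. In the authors' deposited tables Nfkbid had a log2 fold change of -0.29 in rTregs and 1.08 in stimulated cells. Bcl2l11 had -0.34 in rTregs and 1.15 in stimulated cells. Cd5 had -0.35 in rTregs and 0.26 in stimulated cells. Pde2a, a phosphodiesterase, had 0.58 in rTregs and -0.66 in stimulated cells. Groups of 2 and 3 libraries were too small to be searched for single outlying libraries.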

How the results depend on the processing

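The 0 calls of limma became 4 lower (H2-Ab1, H2-Aa, H2-Eb1 and Igj) with only the 4 libraries compared. They became 1 lower and 2 higher without a filter (low or small RNA genes), and 1 lower (Ccl22) with a replicate block. Whether replicate numbers pair the libraries was not settled by the correlation of -0.065. Leaving out 1 library at a time gave 0 to 231 lower and 0 to 49 higher, the highest counts without c-Rel-/- replicate 2 and 1 lower without c-Rel-/- replicate 1. Pseudocounts, 3 RPKM, median-of-ratios scaling and robust variance left both counts at 0. The 26 genes at least 1 log2 unit below both WT libraries became 52 with a pseudocount of 0.1 and 16 with 3 RPKM, and the 9 above became 14 with 0.1, 4 with a pseudocount of 1 and 5 with 3 RPKM.

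The filter of 3 RPKM kept 79 of the 85 named genes. Genes named because their groups did not overlap could not change sign when 1 library was left out. Of the 85 genes, 77 kept their sign under every alternative in which they were tested. The other 8, none of them called by limma or in the authors' deposited table, changed sign when 1 library was left out. Their log2 differences lay between -0.043 and 0.29 in Aldoa (-0.012 without c-Rel-/- replicate 1) and between -0.36 and 0.17 in Ldha. The range was -0.10 to 0.35 in Calr, -0.074 to 0.35 in Hspa5 and -0.83 to 0.025 in Prf1. It was -0.11 to 0.47 in Cd8b1, -0.19 to 0.44 in Hspa8 and -0.12 to 3.02 in Ddx3y. The cause was not tested. Counting list calls without c-Rel-/- replicate 2 was chosen after seeing the data. With 2 libraries a group, the spread is poorly known, and levels under about 1 RPKM rest on few reads.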

Other observations

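Small RNA genes and weakly expressed genes were among those at least 1 log2 unit past both WT libraries in both c-Rel-/- libraries. Below stood Mir15b and AF357359 with differences of -1.64 and -2.45 log2 units in each c-Rel-/- library, and above stood Mir1900, with 1.72 in replicate 1 and 1.80 in replicate 2, and Snord8, with 1.05 and 1.45. Among coding genes of the same set, Dapl1 was higher by 2.51 and 1.08 log2 units and Slc16a10, an amino acid transporter, by 1.46 and 1.23. Tyrobp, an adaptor of myeloid and NK cell receptors, was lower, with -1.49 in replicate 1 and -1.46 in replicate 2, and Ctsh, a lysosomal protease, was lower, with -2.36 and -1.83. Il1b, the cytokine interleukin 1 beta, had -1.77 in both, and Ly6d had -1.44 in replicate 1 and -1.95 in replicate 2. These genes were named after their values were seen, and limma called 0 of them with all libraries.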
